A study of Homo sapiens with 6 samples.

Results

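The HOX cluster genes of TPC1, a human papillary thyroid carcinoma line, were examined for their level and for their response to TFCP2L1. Members were the rows of the count table whose symbol is HOXA, HOXB, HOXC or HOXD followed only by a number, which left out the antisense genes, and there were 20 such rows among 21173 genes. The human annotation of RefSeq holds 39 genes with such symbols, so 19 had no row and were not analysed here. Bulk RNA-seq was made from 3 libraries of TPC1 cells with the genotype TFCP2L1 OE, which overexpress the transcription factor TFCP2L1, and 3 libraries of TPC1 cells with the genotype WT that carry the vector. No further treatment, time point or selection is named in the labels, and neither the promoter behind TFCP2L1 nor whether a group was 1 clone or separate cultures is given. The p-values therefore measure only the spread between these libraries, which may be technical. In bulk RNA, fewer cells with a transcript and less of it in each cell cannot be told apart.

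HOX genes encode homeodomain transcription factors and lie in the 4 clusters HOXA, HOXB, HOXC and HOXD. Genes with the same number are paralogs of each other, and along each cluster low numbers are used toward the head of the embryo and high numbers toward its tail. HOX proteins bind DNA together with TALE homeodomain partners of the PBX and MEIS families. Polycomb complexes keep HOX genes silent, trithorax and MLL complexes keep them active, and retinoic acid induces the low-numbered genes. The thyroid forms from the pharyngeal endoderm of the anterior embryo, and group 3 HOX genes are known from mouse mutants to act in the development of the thyroid and its neighbouring glands.

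The homeobox, the stretch that encodes the DNA-binding domain shared by all HOX proteins, is shown for HOXA2, the member with the second highest level in the deposited FPKM and the third highest with GENCODE lengths. The bases come from a GENCODE v29 transcript on GRCh38, lie at chr7:27101251-27101430 on the minus strand in exon 2 of HOXA2, and are printed 5′ to 3′ in the direction of transcription. The stretch has 180 bases, and the 18 capital bases encode the part of the recognition helix by which it was located.
HOXA2: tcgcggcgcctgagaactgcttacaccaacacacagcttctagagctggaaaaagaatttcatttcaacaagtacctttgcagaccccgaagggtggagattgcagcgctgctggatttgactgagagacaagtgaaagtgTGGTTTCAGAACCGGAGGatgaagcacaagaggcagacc
The paralogs HOXA2 and HOXB2 shared 76.7% of their homeobox bases. No source at hand states the read length, and how many reads of this stretch could have been placed on the wrong paralog was not tested.

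The libraries held 38213520 to 38987434 reads in TFCP2L1 cells and 37928516 to 38249193 reads in vector cells. TFCP2L1 itself had 13578, 13885 and 12333 reads in TFCP2L1 cells, against 0, 0 and 1 read in vector cells. Of 8 thyroid lineage markers 5 had a row, and PAX8, a transcription factor of the thyroid lineage, had 17535 to 20399 reads in TFCP2L1 cells and 19721 to 21516 reads in vector cells. FOXE1 and HHEX were also detected, and TG was low, with 33 to 47 reads in TFCP2L1 cells and 29 to 56 in vector cells. SLC5A5 had 6 reads in 1 library, and NKX2-1 and TSHR were among those with no row. Of 5 epithelial markers KRT8 and KRT18 were well covered, while CDH1 had 1 read in all. KRT19 had 0 to 8 reads in each library, and EPCAM had 1 to 20, the highest in vector replicate 1. The leukocyte markers summed to 0.105 to 0.282 CPM (reads scaled to a library of 1e6 reads) in TFCP2L1 cells and 0.183 to 0.606 in vector cells, from 2 of 4 genes with a row. The fibroblast markers had a row for 3 of 4 genes, with none for DCN. They summed to 3.43 to 4.31 CPM in TFCP2L1 cells and 4.83 to 5.33 CPM in vector cells. These sums did not overlap, as those of the HOX genes did not. Nearly all these reads were of COL1A1, with 128 to 161 in TFCP2L1 cells and 180 to 203 in vector cells (edgeR adjusted p = 0.127). COL1A2 had 0 or 1 read in each library and PDGFRA 1 to 11. The part of fibroblast cells in the HOX values was not tested. The endothelial markers, 3 of 4 with a row, summed to 0.890 to 1.21 CPM in TFCP2L1 cells and 0.784 to 1.24 CPM in vector cells. Most of those reads were of PECAM1, with 34 to 46 in TFCP2L1 cells and 21 to 35 in vector cells. VWF had 0 to 6 reads in each library and KDR 0 to 12.

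The members took few reads. All 20 together had 412, 418 and 460 reads in TFCP2L1 cells, against 515, 561 and 481 reads in vector cells. Scaled to the library total, in CPM this was 11.2 ± 0.752 in TFCP2L1 cells and 13.6 ± 1.04 in vector cells (SD, n = 3 each), and the libraries of the groups did not overlap. The sum follows HOXB3 in large part, which held 50.3% of the HOX reads of TFCP2L1 cells and 53.6% of those of vector cells. Without HOXB3 the sum was 5.55 ± 0.468 CPM in TFCP2L1 cells and 6.31 ± 0.866 in vector cells, and the groups overlapped. A sum over chosen members carries no test.

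**Figure D1:**
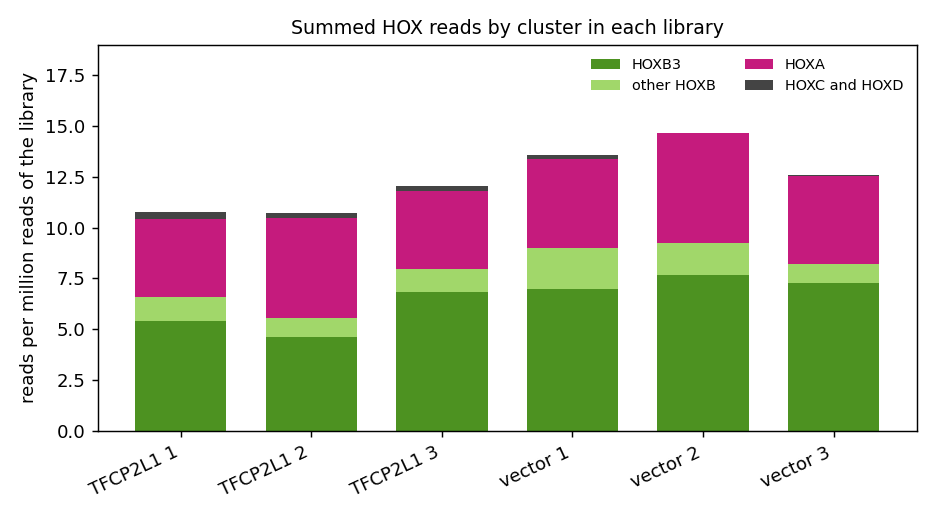
Stacked bars give the reads of HOXB3, the other HOXB genes, HOXA, and HOXC with HOXD as CPM. HOXB3 fills the largest block in every bar but that of TFCP2L1 replicate 2, where HOXB3 stands at 4.64 CPM and HOXA at 4.92 CPM, and HOXC and HOXD are at most a thin cap.

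Most of the reads lay at the low-numbered end of HOXA and HOXB. HOXA had rows for 7 of its 11 genes, and its summed level was 4.19 ± 0.633 CPM in TFCP2L1 cells and 4.71 ± 0.606 in vector cells. HOXB had rows for 7 of 10 genes and summed to 6.72 ± 1.21 CPM in TFCP2L1 cells and 8.81 ± 0.540 in vector cells. HOXC had rows for 5 of 9 genes with 25 reads in TFCP2L1 cells and 11 in vector cells. HOXD had a row for 1 of 9 genes, HOXD12, with 5 reads in TFCP2L1 cells and 0 in vector cells. Anterior genes, those numbered 1 to 3, held 78.7% of the HOX reads of TFCP2L1 cells and 83.1% of those of vector cells. The group 3 genes HOXA3 and HOXB3 held 66.8% of the HOX reads of TFCP2L1 cells and 69.7% of those of vector cells. These shares are not scaled to gene length, and HOXB3 alone held 50.3% in TFCP2L1 cells and 53.6% in vector cells. Levels per length, given below, placed the central gene HOXB4 first as deposited and HOXB3 first with GENCODE lengths. Posterior genes, those numbered 9 to 13, had rows for 4 of 16 genes and 7 reads in TFCP2L1 cells and 4 in vector cells.

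Levels between genes were compared per length, in the deposited FPKM (reads scaled to gene length and library total). Over the 6 libraries HOXB4 averaged 0.579 FPKM, HOXA2 0.490, HOXA3 0.393, HOXB3 0.352, HOXA5 0.244, HOXA6 0.238 and HOXA4 0.136. The next were HOXC6 at 0.0618, HOXB2 at 0.0568 and HOXA7 at 0.0452 FPKM, and 9 members were under 0.01. Every neighbour in this order overlapped the next in its range over the libraries. Even HOXB4 was low, with 11862 of the 21173 genes at its level or above. The order rests on the lengths behind the deposited FPKM. For HOXB3 that length was 18337 bases, against 7456 exon bases in GENCODE v29, and for HOXB4 it was 2002 against 3757. With the GENCODE lengths, an alternative added after seeing the data, HOXB3 came first at 0.867 FPKM, above all values of the gene in the second place, HOXA3 at 0.469 (highest library 0.571), followed by HOXA2 at 0.336 and HOXB4 at 0.309.

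A member was marked as having few reads when it had under 10 in every library, and 11 of the 20 members were, 5 in HOXB, 5 in HOXC and HOXD12. Of these, 8 had 3 or fewer reads over all 6 libraries. In the filter for testing (edgeR's filterByExpr), 6 members passed, HOXA2, HOXA3, HOXA5, HOXB3 and HOXB4 among them.

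**Figure D2:**
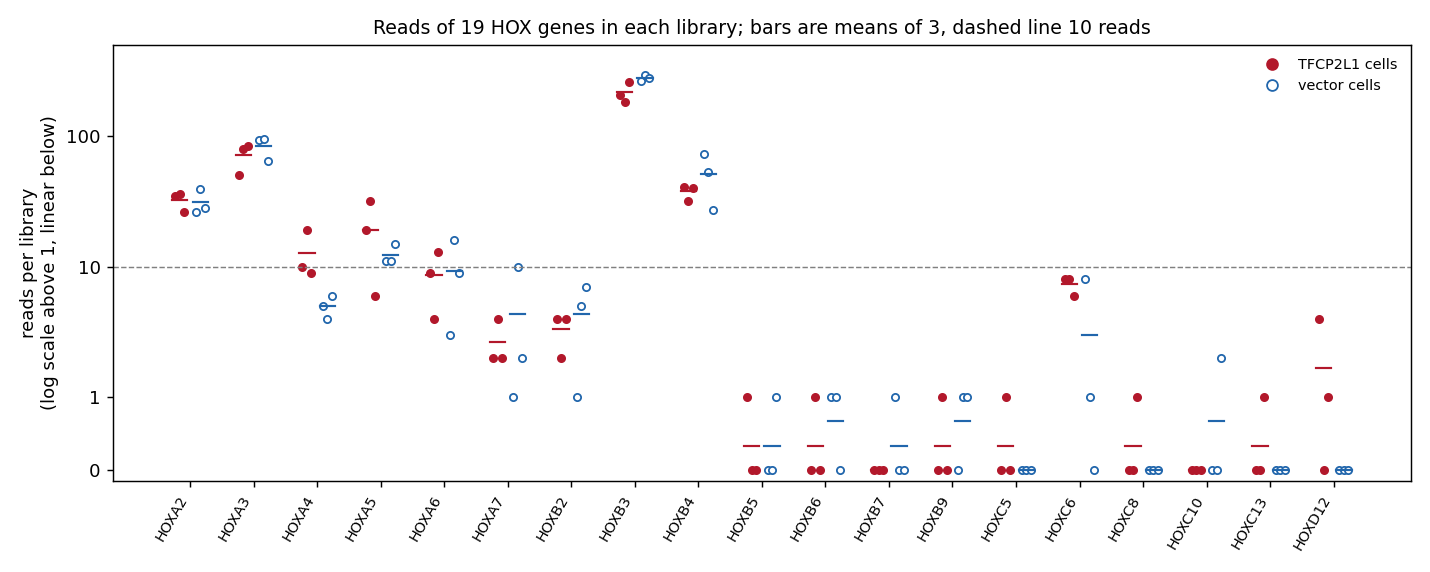
Points give the reads of 19 members in each library, TFCP2L1 left and vector right, on an axis that is logarithmic above 1 and linear below. Short bars are means of 3 libraries, and the dashed line marks 10 reads, which 11 members never reach.

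TFCP2L1 cells were set against vector cells to ask whether HOX transcripts differ when TFCP2L1 is overexpressed. None of the 6 tested members passed edgeR's quasi-likelihood test at an adjusted p under 0.05. Over all 14431 tested genes, 668 (4.63%) rose and 1002 (6.94%) fell, 11.6% in all. At an unadjusted p under 0.05 there were 2 members, HOXB3 among them, both lower, against 25.2% of all genes. DESeq2, which called 13.8% of all genes, and limma-voom, which called 4.23% higher and 6.78% lower, likewise gave 0 called members. The same 2 had an unadjusted p under 0.05 in both, beside 24.9% of all genes in DESeq2 and 25.4% in limma-voom. The median log2 fold change of the 6 was -0.34, against 0.0026 over all tested genes, and 4 of the 6 were negative. The members were few and not independent of each other, so the median is a description.

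Among the anterior members, HOXB3 (ENSG00000120093.11; chromosome 17, 48548870 to 48604912, minus strand), a group 3 gene and the member with the most reads, had 207, 181 and 261 reads in TFCP2L1 cells and 265, 293 and 277 reads in vector cells. The groups did not overlap, though TFCP2L1 replicate 3 reached almost the lowest vector library. Its log2 fold change was -0.40 ± 0.17 (SE; 95% interval -0.76 to -0.05), with an unadjusted p of 0.0288 and an edgeR adjusted p of 0.141. Without TFCP2L1 replicate 3 the log2 fold change was -0.57 and the edgeR adjusted p 0.0332, the one setting in which a member was called (13.1% of all genes were called there). HOXB3 was among the 2 of 6 tested members whose groups did not overlap in CPM (here after TMM scaling), both lower, as were 15.6% of all tested genes, with a further 14.4% higher without overlap.

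HOXA3 (ENSG00000105997.22; chromosome 7, 27106184 to 27152581, minus strand), the HOXA paralog of HOXB3, had 50, 79 and 84 reads in TFCP2L1 cells and 93, 94 and 64 reads in vector cells. The groups overlapped, and its log2 fold change was -0.28 ± 0.29 (95% interval -0.89 to 0.33; edgeR adjusted p = 0.606). Over the fits that each left out 1 library it ran from -0.44 without vector replicate 3 to -0.076 without TFCP2L1 replicate 1. HOXA2, known for its part in branchial arch patterning, had 35, 36 and 26 reads in TFCP2L1 cells and 26, 39 and 28 reads in vector cells. Its libraries were intermingled, with a log2 fold change of 0.02 ± 0.40 (95% interval -0.84 to 0.87; edgeR adjusted p = 0.986). These intervals still hold changes of over 1.5-fold in HOXA2, so equal levels were not shown. HOXB2, its paralog, had 4, 2 and 4 reads in TFCP2L1 cells and 1, 5 and 7 reads in vector cells and was not tested.

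Among the central members, those numbered 4 to 8, HOXB4, known as a regulator of blood stem cells, had 41, 32 and 40 reads in TFCP2L1 cells and 73, 53 and 27 reads in vector cells. The vector libraries enclosed the TFCP2L1 libraries, and vector replicate 3 was the lowest of all 6. Its log2 fold change was -0.48 ± 0.39 (95% interval -1.31 to 0.35; edgeR adjusted p = 0.496), and it was -0.12 without vector replicate 1 and -0.78 without vector replicate 3. HOXA5, a gene of lung and thoracic patterning, had 19, 32 and 6 reads in TFCP2L1 cells and 11, 11 and 15 reads in vector cells. TFCP2L1 cells held both the highest and the lowest library, and the log2 fold change of 0.57 ± 0.59 (95% interval -0.69 to 1.84; edgeR adjusted p = 0.607) turned to -0.019 without TFCP2L1 replicate 2.

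**Figure D3:**
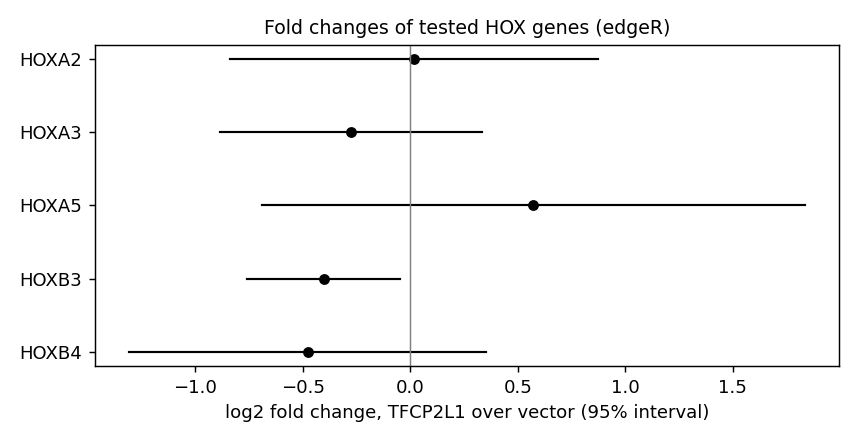
Points are the log2 fold changes of 5 tested members, TFCP2L1 over vector, with 95% intervals from edgeR that are not adjusted for the number of genes. The interval of HOXB3 lies below 0, those of the other 4 include it, and none of the 5 passed the adjusted threshold.

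Members below the filter were given by reads, with an exact 95% interval for the ratio of summed reads that covers counting error only. HOXA4 had 10, 19 and 9 reads in TFCP2L1 cells and 5, 4 and 6 reads in vector cells. Its groups did not overlap in CPM, beside 30.0% of all tested genes (there after TMM scaling), and the ratio was 2.51 (1.35 to 4.91). In the fit with no filter on low counts, which took its spread almost wholly from the trend over all genes, the log2 fold change of HOXA4 was 1.28 ± 0.88 with an edgeR adjusted p of 0.434. HOXA6 had 9, 4 and 13 reads in TFCP2L1 cells and 3, 16 and 9 in vector cells, a ratio of 0.919 (0.518 to 1.63). HOXA7 had 2, 4 and 2 reads in TFCP2L1 cells and 1, 10 and 2 in vector cells. Both were spread across the groups.

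HOXC6, the HOXC member with the most reads, had 8, 8 and 6 reads in TFCP2L1 cells and 8, 1 and 0 reads in vector cells. The ratio of its sums was 2.42 (1.07 to 5.97), but vector replicate 1 matched the TFCP2L1 libraries, and in the fit with no filter the edgeR adjusted p was 0.623. HOXD12, a posterior gene of limb development, had 4, 0 and 1 reads in TFCP2L1 cells and 0 in each vector library. Of its 5 reads 4 were in TFCP2L1 replicate 1, and its edgeR adjusted p was 0.333 in the fit with no filter. The remaining 8 members, HOXB5, HOXB6, HOXB7, HOXB9, HOXC5, HOXC8, HOXC10 and HOXC13, had 1 to 3 reads each over all libraries, and no difference was detectable at this depth. In that fit 0 of the 20 members were called, against 9.78% of the 21173 genes. An unadjusted p under 0.05 was found there for 2 members, beside 20.3% of all genes.

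Neighbouring genes share exon bases with several members, and no source at hand says if the counting used strand. In GENCODE v29, 17.9% of the exon bases of HOXA3 are shared with other genes, 13.2% of those of HOXB3 and 17.1% of those of HOXB4. For HOXA4 the share is 47.3%, for HOXA6 40.1% and for HOXA7 62.5%, while HOXA2 and HOXA5 share none. HOXA-AS3 is among the genes that overlap HOXA6 and HOXA7. The antisense gene HOXA-AS2, which overlaps HOXA3 and HOXA4, had 30, 15 and 24 reads in TFCP2L1 cells and 17, 9 and 23 reads in vector cells (log2 fold change 0.45 ± 0.51, edgeR adjusted p = 0.640). HOXA-AS3 had 6 reads, all in vector replicate 2, the library in which HOXA6 and HOXA7 were highest. The part of antisense reads in the counts of these members was not tested. Of the 25 symbols in the list of noncoding RNAs for the clusters, some of them microRNA genes, 3 had a row and HOXA-AS2 was the one tested.

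RefSeq promoter windows (GRCh38.p14, 250 bases before to 50 after a start) were at hand for 7 of the 20 members: HOXA2, HOXA3, HOXA4, HOXA6, HOXA7, HOXC5 and HOXD12. They were searched on both strands for CCAG followed, after 6 bases, by CCAG or CCGG, a spacing of half-sites known for the CP2 family that includes TFCP2L1. None of their 13 windows held a match, against 7.39% of all 35116 windows. This says only that these letters are not in these windows, which are too few to show a depletion. HOXB3, HOXB4 and HOXA5 had no window at hand.

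Genes that work with HOX proteins were more often covered by reads. Among TALE cofactors 2 of 9 tested genes fell and 0 rose (22.2%, beside 11.6% of all genes). MEIS3, a partner of HOX proteins, was at 2.07, 1.86 and 1.62 CPM in TFCP2L1 cells, against 4.35, 4.96 and 4.45 CPM in vector cells, and fell by 1.31 on the log2 scale (SE 0.21; edgeR adjusted p = 0.000518). TGIF1, a TALE repressor of TGF-beta and retinoid signalling, was at 60.2, 65.1 and 72.4 CPM in TFCP2L1 cells and 89.9, 93.5 and 83.7 CPM in vector cells (log2 fold change -0.43 ± 0.08, edgeR adjusted p = 0.00283). In both the libraries of the groups stood apart. PBX2, PBX3, MEIS1 and MEIS2 were among the 7 not called.

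Of the 29 Polycomb subunits, all tested, 1 fell and 0 rose (3.45%, beside 11.6% of all genes). It was JARID2, a cofactor that recruits Polycomb, at 52.5 ± 4.54 CPM in TFCP2L1 cells and 66.7 ± 2.38 CPM in vector cells (SD, n = 3 each; edgeR adjusted p = 0.0127). That call was lost without TFCP2L1 replicate 1 (edgeR adjusted p = 0.0682) or vector replicate 3 (0.0803), and in limma on log2 FPKM with a pseudocount of 1 (0.0515). The catalytic subunit EZH2 was not called.

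In the list of trithorax, MLL, elongation and chromatin loop genes 4 of 23 rose and 0 fell (17.4%, beside 11.6%). The histone methyltransferase gene DOT1L was at 94.4 ± 3.65 CPM in TFCP2L1 cells and 70.0 ± 0.681 CPM in vector cells, and the cohesin gene SMC1A at 259 ± 4.47 CPM in TFCP2L1 cells and 201 ± 13.3 CPM in vector cells. CTCF, which sets chromatin domain borders within HOX clusters, was at 90.2 ± 2.996 CPM in TFCP2L1 cells and 72.5 ± 4.49 CPM in vector cells (edgeR adjusted p = 0.0131), and the adjusted p was above 0.05 on leaving out vector replicate 1 (0.0754) or 3 (0.0895). WDR5, a core subunit of MLL complexes, had an edgeR adjusted p of 0.0423, which was above 0.05 (0.0676 to 0.140) in each fit without a library except that without TFCP2L1 replicate 2. The MLL gene KMT2A was not called.

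In the retinoid list 3 of 11 tested genes rose and 0 fell (27.3%, beside 11.6%). The median log2 fold change of the 11 was -0.0081. The receptor genes RARG, RXRA and RXRB had negative log2 fold changes and were not called. DHRS3, which turns retinal back into retinol, was at 12.5, 8.75 and 8.84 CPM in TFCP2L1 cells and 6.32, 5.15 and 5.69 CPM in vector cells (log2 fold change 0.81 ± 0.17, edgeR adjusted p = 0.00425). ALDH1A3, which makes retinoic acid, was at 39.2, 44.9 and 37.4 CPM in TFCP2L1 cells and 31.9, 26.7 and 26.8 CPM in vector cells (0.51 ± 0.10, edgeR adjusted p = 0.00378), and other genes share 28.55% of its exon bases. The receptor gene RARA was at 35.3, 30.1 and 46.7 CPM in TFCP2L1 cells and 25.5, 29.6 and 25.3 CPM in vector cells (edgeR adjusted p = 0.0368). Its TFCP2L1 replicate 2 lay just above the highest vector library, and the call was lost in 4 of the 6 fits without a library (0.0777 to 0.132), in limma-voom (0.0513) and in limma on log2 FPKM with a pseudocount of 1 (0.105) or 0.1 (0.0954). RARA-AS1 on the other strand shares 17.9% of the exon bases of RARA.

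Of the genes that flank the clusters, 1 of 11 tested fell and 0 rose (9.09%, beside 11.6%): CALCOCO1, near HOXC, at 30.8 ± 2.51 CPM in TFCP2L1 cells and 42.6 ± 3.24 CPM in vector cells (edgeR adjusted p = 0.00387). SKAP2 beside HOXA and MTX2 and LNPK beside HOXD were not called. Of 13 ParaHox and related homeobox genes 3 had a row and 2 were tested, of which 0 were called by edgeR. GBX2 was at 3.57 ± 0.321 CPM in TFCP2L1 cells and 4.04 ± 0.461 CPM in vector cells, and MNX1 at 0.738 ± 0.199 CPM in TFCP2L1 cells and 0.582 ± 0.276 CPM in vector cells. The unadjusted p of both was above 0.05.

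**Figure D4:**
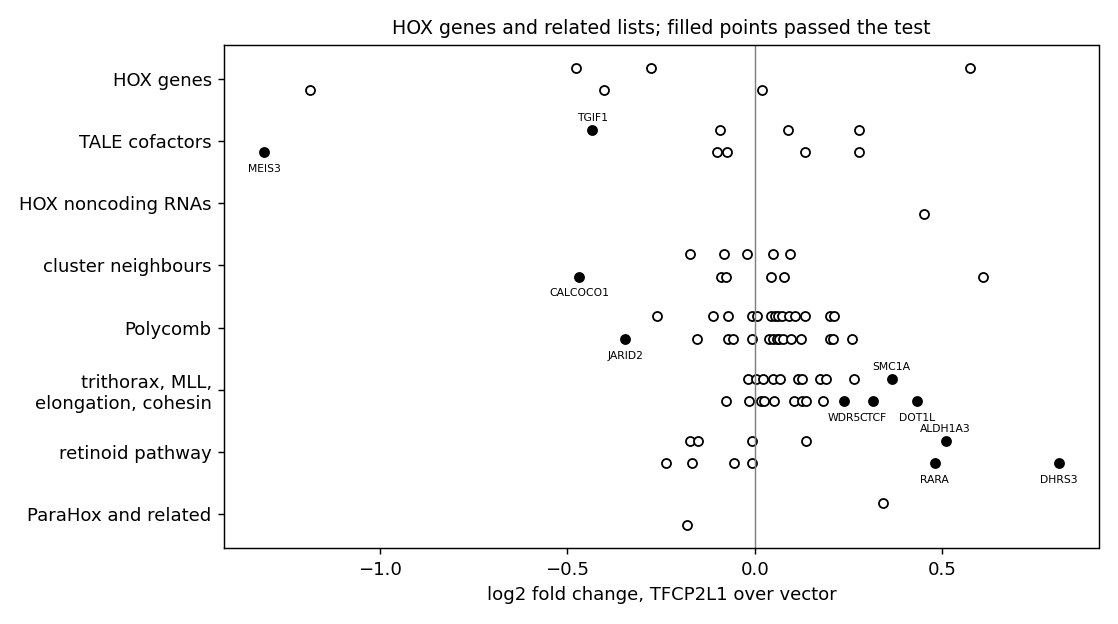
Each point is the log2 fold change, TFCP2L1 over vector, of a tested gene, by list, and filled points had an edgeR adjusted p under 0.05. No HOX gene is filled, and MEIS3 among the TALE cofactors has the lowest value shown.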

How the data were processed

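Per the submitters' processing notes, reads were processed with fastp, HISAT2 and HTSeq on GRCh38.p13. Versions, annotation and strand settings are not given in the sources used here. The authors deposited raw counts of reads and FPKM values for 21173 genes, none of which was at 0 in every library. The deposited FPKM equal counts divided by library total and 1 length per gene (within 0.00012%), so they are no separate measurement. Columns were matched to samples by group and replicate number.

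Counts were fitted with edgeR 4.0.16 (R 4.3.3): filterByExpr kept 14431 genes, scaling was by TMM, and the quasi-likelihood F-test with robust estimation was two-sided, with Benjamini-Hochberg adjustment over all tested genes and a threshold of 0.05. Each SE was obtained from the log2 fold change and its F statistic. Alternatives were other scalings and filters, DESeq2 1.42.0, limma 3.58.1 (voom, and log2 FPKM with pseudocounts of 1 and 0.1), a replicate block and leaving out each library. The test was also run on counts simulated at the levels of all tested genes. The outcome of that run is not given here, and no HOX result rests on it. Replicate libraries differed by more than sampling noise (chi-square per gene 7.49 to 42.4).

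Positions and exon overlap come from GENCODE v29 on GRCh38, which matched all 20 members by symbol. Homeobox bases of 1 member are shown in place of protein stretches. All members enter the sums and counts, and the values of 1 tested member are not reported here. From every other list up to 4 called genes with the largest change were named, or the 2 with the smallest p where none was called, and uncalled genes beyond these were named after their values were seen. The members and lists were chosen with earlier results of these data known.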

Additional observations from a re-analysis of the deposited data

How the results depend on the processing

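Depth limits the HOX results: 14 of the 20 members fell below the filter, and the 95% intervals of the tested members, except HOXB3, span over 1 unit on the log2 scale. The count of called members was 0 in each alternative except without TFCP2L1 replicate 3, where it was 1, HOXB3, so it ran from 0 to 1 over the fits that left out a library. HOXB3 kept a negative log2 fold change in all 16 alternatives, with an adjusted p of 0.0332 to 0.323. The log2 fold change of HOXA2 was -0.04 without TFCP2L1 replicate 1, -0.06 without TFCP2L1 replicate 2, -0.086 on leaving out vector replicate 1 and -0.05 without vector replicate 3, and over the 6 fits without a library it ran from -0.086 to 0.22. That of HOXA5 was -0.019 without TFCP2L1 replicate 2 and ran from -0.019 to 0.99 over these fits. The cause was not tested.

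Over all genes, leaving out a library gave 304 to 773 higher and 601 to 1124 lower genes. Leaving out vector replicate 1 gave 304 higher and 623 lower genes, and leaving out vector replicate 3 gave 315 and 601. Same-numbered libraries correlated at 0.0721, -0.161 and -0.124 in their deviations from the group means. Libraries with different numbers ran from -0.108 (TFCP2L1 replicate 3 with vector replicate 1) to 0.22 (TFCP2L1 replicate 3 with vector replicate 2). With 3 libraries a group, whose deviations sum to 0, these values cannot settle whether the numbers pair the samples. With the replicate block 328 genes were higher and 649 lower, 0 HOX members were called, and the adjusted p was 0.116 for WDR5 and 0.104 for RARA. Over all 16 alternatives 6.35% to 13.8% of tested genes were called.

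With GENCODE exon bases as the length, chosen after seeing the data, the mean level over the 6 libraries was 0.867 FPKM for HOXB3, against 0.352 as deposited, 0.309 for HOXB4, against 0.579, and 0.336 for HOXA2, against 0.490.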
